A study of Mus musculus with 2 samples.

Results

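The 10 genes Atf4, Atf5, Ddit3, Atf3, Nupr1, Trib3, Ppp1r15a, Chac1, Sesn2 and Ddit4 encode the transcription factor ATF4 and stress effectors that act with it or downstream of it. They were compared between the dormant cell-derived melanoma line B16F1-GFP-D and its maternal line B16F1-GFP-M. The genes were chosen by name after earlier readings of these same arrays had shown several of them to be low in B16F1-GFP-D, so every ratio between the lines is given as a description and without a test. All 10 were on the array, as 12 of 41164 probes and 10 of 27401 genes. All 10 were among the 12422 detected genes, that is, genes whose spot stood clear of its local background on both arrays in the RNA of 1 line or more, and each of the 10 did so in both lines.

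B16F1-GFP-D was grown from GFP-positive dormant melanoma cells that had been sorted from pooled organs of tumour-free mice, both control and immunised, and it descends from 1 colony. B16F1-GFP-M is the B16F1 melanoma line from which those cells came, and both lines express GFP. Neither line was treated, and both were grown in DMEM with serum and antibiotics. RNA of both lines was hybridised together on 2 arrays of 1 slide, array 1 carrying the maternal RNA in Cy5 and the dormant cell-derived RNA in Cy3, and array 2 the same with the dyes exchanged. The labels do not say whether the arrays carry the same cultures or extracts, so they were counted as 1 replicate per line. The spread between the arrays was therefore read as technical error only. Over all detected genes the log2 ratios of the arrays had a pooled SD of 0.15, and over the 10 effectors of 0.17. In RNA of a whole culture, fewer cells that express a gene and less RNA per cell cannot be told apart.

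ATF4 is the central transcription factor of the integrated stress response. Kinases that sense amino acid shortage, unfolded protein, haem deficiency or double-stranded RNA phosphorylate the translation factor eIF2alpha, which lowers protein synthesis in general but favours translation of the Atf4 and Atf5 mRNAs through short upstream reading frames. ATF4 then pairs with other leucine zipper factors, binds composite C/EBP-ATF elements and activates genes of amino acid supply together with regulators that extend, brake or redirect the response.

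The promoters of these genes are shown first because the genes are known for a shared response element. RefSeq windows of GRCm38.p6, from 250 bases before to 50 bases after the gene start, were found for all 10 genes, in 11 windows. The core of the C/EBP-ATF response element, written TGATGNAA and searched on both strands, was found in 4 of the 10 genes, against 4.51% of 27025 genes and 3.97% of 32851 windows. It began 110 bases before the start of Nupr1, 110 bases before that of Atf3, 193 bases before that of Chac1 and 14 bases after that of Trib3. The cyclic AMP response element TGACGTCA was found in Ppp1r15a only, 12 bases before its start, and in 1.79% of all windows. The AP-1 site TGANTCA was found in Ddit3 only, 242 bases before its start, and in 7.81% of all windows. No window of the 10 genes held more than 1 of these matches, so that no matches overlapped. Atf4, Atf5, Sesn2 and Ddit4 had none of these letters in their windows. The stretches that hold a match to the C/EBP-ATF core or the cyclic AMP element are printed on the strand of the gene with the match in capitals. The first 3 end at the gene start, the stretch of Ppp1r15a is cut to its last 100 bases, and that of Trib3 is a window of 30 bases around the match.
Nupr1, chr7:126625471-126625720, minus strand: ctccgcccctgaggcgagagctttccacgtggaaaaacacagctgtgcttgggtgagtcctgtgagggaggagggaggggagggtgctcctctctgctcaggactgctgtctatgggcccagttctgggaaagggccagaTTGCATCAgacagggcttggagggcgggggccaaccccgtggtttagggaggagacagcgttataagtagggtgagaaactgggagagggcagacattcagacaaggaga
Chac1, chr2:119350992-119351241, plus strand: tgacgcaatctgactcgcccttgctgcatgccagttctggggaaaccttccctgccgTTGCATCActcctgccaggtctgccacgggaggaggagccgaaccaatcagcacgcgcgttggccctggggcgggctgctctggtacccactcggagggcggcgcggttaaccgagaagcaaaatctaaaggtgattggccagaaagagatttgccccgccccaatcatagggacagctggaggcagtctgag
Atf3, chr1:191183334-191183583, minus strand: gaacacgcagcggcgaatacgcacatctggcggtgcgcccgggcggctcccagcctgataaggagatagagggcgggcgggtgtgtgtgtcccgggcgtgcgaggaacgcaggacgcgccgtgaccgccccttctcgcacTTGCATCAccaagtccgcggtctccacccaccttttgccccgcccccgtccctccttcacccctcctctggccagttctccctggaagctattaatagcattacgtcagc
Ppp1r15a, chr7:45526269-45526368, minus strand: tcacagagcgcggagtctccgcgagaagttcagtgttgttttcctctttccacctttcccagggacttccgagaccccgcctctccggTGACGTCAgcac
Trib3, chr2:152344028-152344057, minus strand: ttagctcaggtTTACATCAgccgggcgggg
The match of Nupr1, Chac1 and Atf3 has the same 8 letters, TTGCATCA, which is the core read on the opposite strand, and that of Trib3 is TTACATCA.

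All 10 genes were lower in the dormant cell-derived line on both arrays, except that with median centring in place of loess normalization Atf4 and Atf3 lay above 0 on array 2. Median centring left all detected genes with medians of -0.86 on array 1 and 1.03 on array 2, so that the signs given here for small ratios on each array, those of the gene lists included, hold for loess only. The size differed widely between them, from 11.8-fold for Nupr1 to 1.52-fold for Atf3. With a rule of size of at least 2-fold on each array, 8 of the 10 were called lower, against 1.95% of all detected genes. With median centring, 3 were called, namely Nupr1, Atf5 and Trib3. At any size, 42.8% of detected genes were lower on both arrays. The median log2 ratio of the 10 genes was -2.04, and that of all detected genes was -0.01. Because the genes were picked with these ratios known, nothing is read from the distance between these shares.

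**Figure D1:**
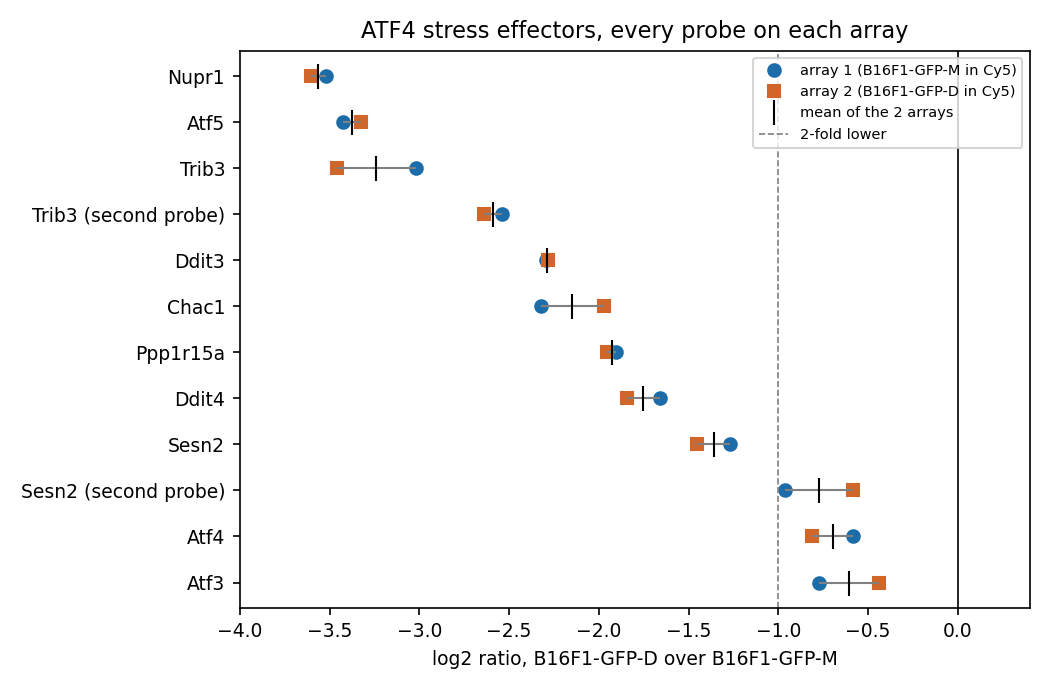
Log2 ratio of the dormant cell-derived line to its maternal line (horizontal axis) of each of the 12 probes of the 10 genes, with a circle for array 1, a square for array 2 and a tick for their mean. All points lie left of 0, Nupr1, Atf5 and Trib3 lie furthest left, and Atf4, Atf3 and the second probe of Sesn2 lie right of the 2-fold line.

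Among the transcription factors, the largest difference was that of Atf5, a relative of ATF4 whose mRNA is also under translational control in stress. Its normalized log2 intensity was 15.03 and 15.05 in B16F1-GFP-M on arrays 1 and 2, and 11.61 and 11.73 in B16F1-GFP-D. Both values of the maternal line were far above both values of the dormant cell-derived line. The log2 ratio was -3.42 on array 1 and -3.32 on array 2, with a mean of -3.37 ± 0.07 (SD between 2 arrays), which is 10.4-fold lower. The probe lies on the minus strand at chr7:52067718-52067777 of mm9, the build of the probe positions in the array files. Whether the probes lie in coding or untranslated sequence was not analysed here.

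Ddit3 encodes CHOP, a C/EBP family factor known for its part in cell death after prolonged stress of the endoplasmic reticulum. It had log2 intensities of 13.02 and 13.05 in B16F1-GFP-M and of 10.73 and 10.77 in B16F1-GFP-D. The values of the 2 arrays, which had been scaled to each other, were nearly the same within each line, and the lines did not overlap. Its log2 ratio was -2.29 ± 0.01, or 4.88-fold lower, the smallest spread between the arrays of the 10 genes. The probe is placed on the plus strand at chr10:126732518-126732821, a span longer than the probe itself. The neighbouring methionyl-tRNA synthetase gene Mars1, with a probe on the minus strand at chr10:126733940-126733999, was not lower but had log2 ratios of 0.57 and 0.56, and is named here for its position.

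Atf4 itself showed a much smaller difference. Its log2 intensity was 11.92 and 12.04 in B16F1-GFP-M and 11.34 and 11.23 in B16F1-GFP-D, so that the lines did not overlap. The log2 ratio was -0.58 on array 1 and -0.81 on array 2, with a mean of -0.70 ± 0.16, or 1.62-fold lower, which is below the 2-fold rule on both arrays. The array measures Atf4 mRNA and gives no value for the ATF4 protein, whose amount is set largely at translation. The stretch of mRNA that was measured is shown by the probe, which lies on the plus strand at chr15:80087079-80087138 and in which 1 of the 3 reading frames has no stop codon.
Atf4 probe: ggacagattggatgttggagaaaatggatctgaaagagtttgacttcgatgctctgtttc

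Atf3, a factor that is induced by many stresses and can repress its own promoter, had the smallest difference. Its log2 intensity was 10.97 and 10.74 in B16F1-GFP-M and 10.20 and 10.31 in B16F1-GFP-D. Its log2 ratios were -0.77 and -0.44, with a mean of -0.61 ± 0.24, or 1.52-fold lower. The element in its promoter printed above has the same letters as that in Nupr1, the gene with the lowest ratio of the 10. Its only probe lies on the minus strand at chr1:192994547-192994606.

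Nupr1 encodes a small nuclear protein that is induced by stress and takes part in chromatin and transcription complexes. It was the lowest of the 10 genes and had rank 3 from the lowest among the 12422 detected genes. Its log2 intensity was 14.28 and 14.52 in B16F1-GFP-M and 10.76 and 10.91 in B16F1-GFP-D. In B16F1-GFP-D the spot was still brighter than its surroundings by 50.2 and 55.5 times, so the transcript was well measured in both lines. The log2 ratios were -3.52 and -3.61, with a mean of -3.56 ± 0.06, or 11.8-fold lower. Its only probe lies on the minus strand at chr7:133766978-133767037 and holds the 15 bases CAATGGATACAGGAC more than 1 time. Only 100 of the 41164 probes, or 0.243%, held a repeat of this length or more, no other probe held these bases, and the part of the repeat in the ratio was not tested.

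**Figure D2:**
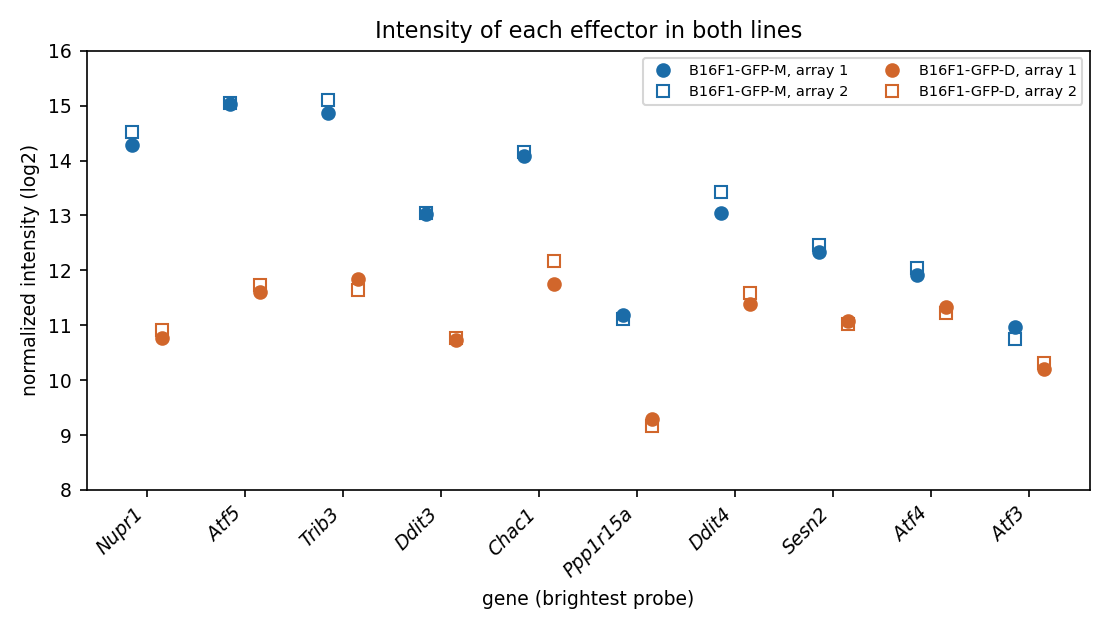
Normalized log2 intensity (vertical axis) of the brightest probe of each gene in B16F1-GFP-M (blue) and B16F1-GFP-D (orange), with filled circles for array 1 and open squares for array 2. In every gene both blue points lie above both orange points, and levels of different genes are not comparable because each probe binds with its own strength.

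The next 2 genes encode brakes of the response. Trib3, a pseudokinase that binds ATF4 and restrains it and that also binds the kinase AKT, was measured by a pair of probes. The brighter, on the minus strand at chr2:152163355-152163414, had log2 intensities of 14.86 and 15.10 in B16F1-GFP-M and of 11.84 and 11.64 in B16F1-GFP-D. Its log2 ratios were -3.02 and -3.46, with a mean of -3.24 ± 0.31, or 9.46-fold lower, the largest spread between the arrays of the 10 genes. The second probe, at chr2:152164025-152164084, had ratios of -2.54 and -2.64, with a mean of -2.59 ± 0.07, or 6.01-fold lower. Both probes passed the 2-fold rule, which 1.52% of the 19140 detected probes passed in this direction, and their means differed by 0.65 on the log2 scale.

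Ppp1r15a encodes GADD34, the stress-induced subunit that directs protein phosphatase 1 to eIF2alpha and so ends the block of translation. It had log2 intensities of 11.19 and 11.12 in B16F1-GFP-M and of 9.29 and 9.16 in B16F1-GFP-D, and the lines did not overlap. Its log2 ratio was -1.90 on array 1 and -1.96 on array 2, with a mean of -1.93 ± 0.04, or 3.81-fold lower. The probe lies on the minus strand at chr7:52779582-52779641. Ppp1r15b, which encodes the constitutive counterpart of this subunit, had ratios of -0.10 and 0.07, so that its sign differed between the arrays; this gene was picked for comparison after its values were seen.

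Chac1 encodes an enzyme that breaks down glutathione in the cytosol. Its log2 intensity was 14.08 and 14.15 in B16F1-GFP-M and 11.76 and 12.17 in B16F1-GFP-D. Its log2 ratios were -2.32 and -1.97, with a mean of -2.15 ± 0.25, or 4.43-fold lower. The probe lies on the plus strand at chr2:119179990-119180049. Of 7 genes of glutathione synthesis and turnover, all detected, 5 were lower and 1 was higher on both arrays, none passed the 2-fold rule, and the median log2 ratio was -0.14. The paralogue Chac2 had ratios of -0.19 and 0.16.

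Sesn2 and Ddit4 encode inhibitors of mTORC1, the kinase complex that couples growth to nutrients. Sestrin 2 senses leucine and acts on the GATOR complexes, and DDIT4, also named REDD1, acts through the TSC complex. Ddit4 had log2 intensities of 13.04 and 13.43 in B16F1-GFP-M and of 11.39 and 11.58 in B16F1-GFP-D. Its log2 ratios were -1.66 and -1.84, with a mean of -1.75 ± 0.13, or 3.37-fold lower, from a probe on the minus strand at chr10:59412486-59412545. Both inhibitors were thus lower in the line that was grown from dormant cells.

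Sesn2 was the gene just inside the 2-fold rule. Its brighter probe, on the minus strand at chr4:132047974-132048033, had log2 intensities of 12.34 and 12.47 in B16F1-GFP-M and of 11.07 and 11.02 in B16F1-GFP-D. The log2 ratios were -1.27 and -1.45, with a mean of -1.36 ± 0.13, or 2.57-fold lower. The second probe, at chr4:132048858-132048917, had ratios of -0.96 and -0.59, with a mean of -0.77 ± 0.27, and did not pass the rule. Atf4, with a mean of -0.70, was the gene just outside it.

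In the order from the lowest ratio, Nupr1 was followed by Atf5, Trib3, Ddit3, Chac1, Ppp1r15a, Ddit4, Sesn2, Atf4 and Atf3. Of the 9 neighbouring pairs in this order, 3 had ranges over the arrays that overlapped, namely Atf5 with Trib3, Ddit3 with Chac1, and Atf4 with Atf3. The ranges of the other 6 pairs did not overlap, although Nupr1 and Atf5 differed by only 0.19. Among all detected genes, Nupr1, Atf5 and Trib3 had ranks 3, 5 and 6 from the lowest, and Ddit3, Chac1, Ppp1r15a and Ddit4 had ranks 15, 21, 27 and 38. Sesn2 had rank 114, Atf4 rank 774 and Atf3 rank 1060. On array 1 alone Chac1 came before Ddit3 and Atf4 was the highest of the 10 in place of Atf3, and on array 2 alone Trib3 came before Atf5.

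**Figure D3:**
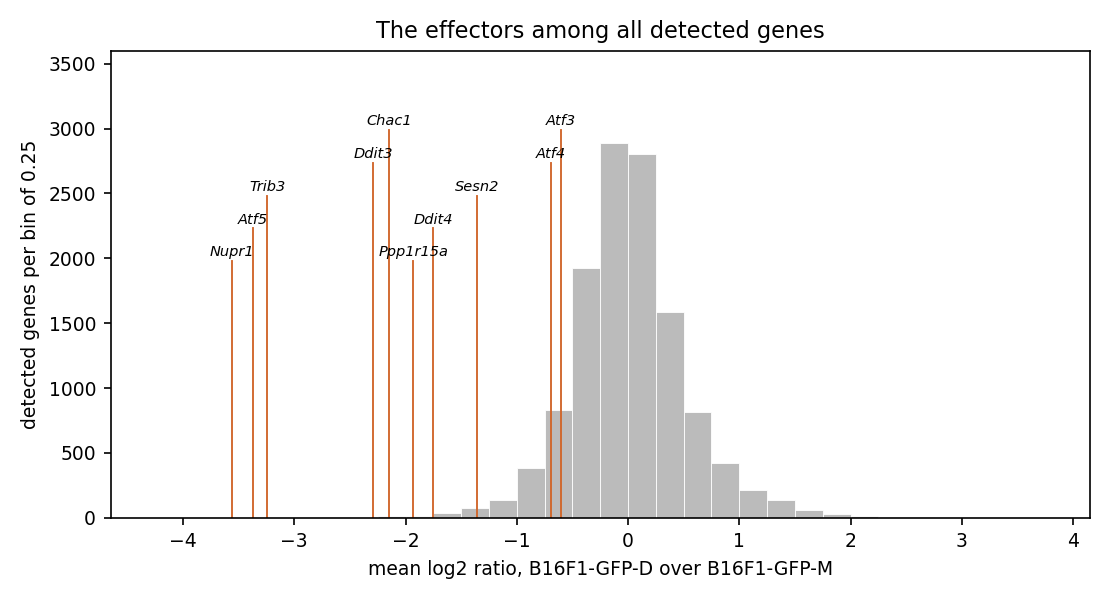
Number of detected genes (vertical axis) in bins of 0.25 of the mean log2 ratio of B16F1-GFP-D to B16F1-GFP-M (horizontal axis), with a line at the ratio of each of the 10 genes. All 10 lines lie left of 0, from -3.56 for Nupr1 to -0.61 for Atf3, and the 8 genes called lower lie in the sparse left tail.

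The genes around the 10 effectors had ratios near 0 in the median. Within 500 kb on either side, the detected neighbours of each gene had median log2 ratios between -0.25, around Atf4, and 0.22, around Chac1. Around Nupr1, 36 neighbours had a median of -0.14, of which 1 was called lower and 1 higher. The gene called lower was Apobr, with a mean log2 ratio of -2.62. Around Ppp1r15a, 3 of 45 neighbours were called lower and 1 higher, around Atf5 2 of 39 lower and 2 higher. Around Ddit4, 1 of 7 was called lower and 0 higher. Among all detected genes, 1.95% were called lower and 3.11% higher. The windows of Atf5 and Ppp1r15a overlap, so that their counts are not separate. No neighbour was called lower around the other 6 genes, while 2 were called higher around Chac1, 1 around Atf3 and 1 around Sesn2.

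The genes upstream of ATF4 did not show the pattern of its effectors. On both arrays, all 4 kinases of eIF2alpha had ratios slightly above 0. Eif2ak3, the endoplasmic reticulum kinase PERK, had log2 ratios of 0.30 and 0.40, and Eif2ak4, the amino acid sensor GCN2, had 0.16 and 0.33. Eif2ak1, the haem-regulated kinase, had 0.05 and 0.49, and Eif2ak2, the double-stranded RNA kinase PKR, had 0.10 and 0.31. Of 20 detected genes for the kinases, eIF2, its exchange factor eIF2B and its phosphatases, 13 were higher and 5 were lower on both arrays, none was called, and the median was 0.14. The arrays give mRNA levels and say nothing of kinase activity or of phosphorylation of eIF2alpha.

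Of 22 listed leucine zipper factors, among them partners of ATF4 and CHOP, 19 were detected, with a median log2 ratio of -0.36. Of these, 3 were called lower and 1 was called higher. Of all detected genes, 1.95% were called lower and 3.11% higher. How many of these factors stayed called with median centring was not counted. Cebpb, a C/EBP factor that pairs with ATF4 and with CHOP, had ratios of -2.77 and -2.57, or 6.36-fold lower. Cebpg, the common partner of ATF4 at C/EBP-ATF elements, had -1.33 and -1.23, or 2.43-fold lower. Nfe2l1, a regulator of proteasome genes, had -1.42 and -1.34. The factor called higher was Fos, a subunit of AP-1, with 1.94 and 2.09, or 4.04-fold higher. Its spot was dim in B16F1-GFP-M, at 2.18 and 2.91 times the local background, and the scanner software's log2 ratio was 3.38, so that the size of its difference depended on the processing. These values are those of the brightest probe, and the other probe of Cebpb had a mean of -1.20, while those of Cebpg ranged from -1.47 to -0.72.

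The listed paralogues of the 10 genes did not move with them as a group. The list leaves out Ppp1r15b and the C/EBP relatives of Ddit3, of which Cebpb and Cebpg were called lower, as given above. Of the 8 paralogues in the list, 7 were detected, none was called, and their median log2 ratio was -0.01. Jdp2, the close relative of Atf3, was the lowest of them with -1.12 and -0.94, so that it passed 2-fold on 1 array only. Sesn1 had ratios of 0.76 and 0.74 and Ddit4l 0.40 and 0.61, both opposite in sign to Sesn2 and Ddit4. Sesn3 had -0.43 and -0.23 and Trib1 had -0.27 and -0.14. Nupr1l, also named Nupr2, had 0.04 and -0.01 and was well above background in B16F1-GFP-M only, and Trib2 was not detected.

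**Figure D4:**
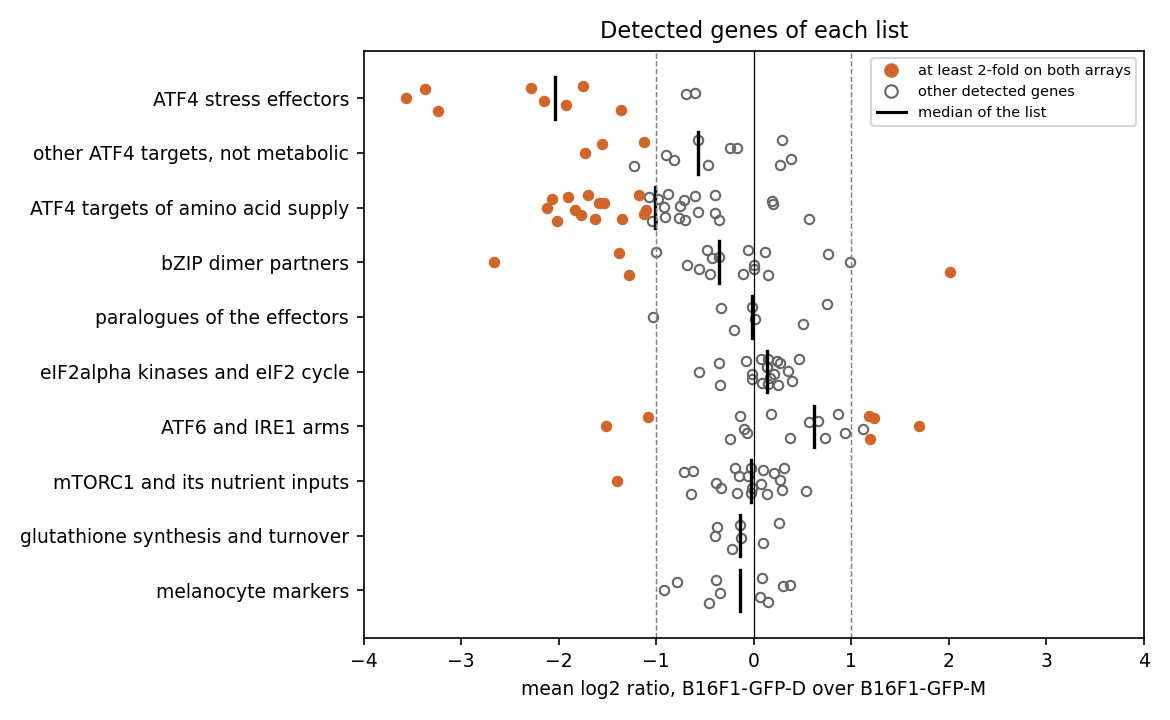
Mean log2 ratio of B16F1-GFP-D to B16F1-GFP-M (horizontal axis) of the detected genes of each list (vertical axis), with filled points for genes called at 2-fold on both arrays, open points for the others and a bar for the median of the list. The medians of the effectors, of their amino acid supply targets and of the other targets lie at -2.04, -1.01 and -0.57, and that of the ATF6 and IRE1 arms lies at 0.61.

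Other known targets of ATF4 were taken from 2 lists, which were written with earlier results of these arrays known. Of 16 targets outside metabolism, 13 were detected, of which 10 were lower and 3 higher on both arrays, with a median log2 ratio of -0.57. Called lower were 3 of them, and 0 with median centring, against the 1.95% of all detected genes. Vldlr, a lipoprotein receptor, had -1.74 and -1.72, with a mean of -0.65 at its other probe, Gadd45a, a growth arrest and DNA damage gene, had -1.47 and -1.64, and Eif4ebp1, a repressor of cap-dependent translation under mTORC1, had -1.19 and -1.07, with a mean of -0.34 at its other probe. The secreted stress factors Fgf21, Gdf15 and Stc2 were not well above background in either line.

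Of 32 detected ATF4 targets of amino acid supply, 29 were lower and 3 were higher on both arrays, with a median of -1.01. Called lower were 14 and none was called higher, against 1.95% of all detected genes called lower. With median centring 19 of all detected genes were called lower, against 242 with loess. How many of this list remained was not counted. The 5 lowest were Cth, which makes cysteine from cystathionine, with -1.98 and -2.26, Aldh1l2, a mitochondrial folate enzyme, with -1.94 and -2.19, the cystine transporter gene Slc7a11 with -2.10 and -1.94, the glycine transporter gene Slc6a9 with -2.04 and -1.76, and Psph, the last enzyme of serine synthesis, with -2.19 and -1.49. The 4 probes of Slc7a11 had means from -2.02 to -0.04. The order changed with the processing: in the ratios of the scanner software, Cth and Aldh1l2 had -2.92 and -2.79, and Pycr1, a proline synthesis enzyme named here after its values were seen, came before Slc7a11, with -2.60 against -2.35.

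The other arms of the unfolded protein response went the opposite way in most of their genes. Of 18 genes of the ATF6 and IRE1 arms, all detected, 12 were higher and 5 were lower on both arrays, with a median log2 ratio of 0.61. Called higher were 4 genes for proteins of the endoplasmic reticulum, against 3.11% of all detected genes called higher. Sdf2l1 had 1.70 and 1.68, Creld2 had 1.27 and 1.20, Manf had 1.23 and 1.17, and Pdia6, a disulphide isomerase, had 1.21 and 1.16. The sensors themselves were called lower, Atf6 with -1.53 and -1.49 and Ern1, which encodes IRE1, with -1.12 and -1.05. Of all detected genes, 1.95% were called lower. With median centring 45 of all detected genes were called higher and 19 lower, and how many of these arms remained was not counted.

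Beside Sesn2 and Ddit4, the mTORC1 pathway showed few differences. Of 21 detected genes for the complex, its TSC and Rheb inputs and its amino acid sensors, 10 were lower and 5 were higher on both arrays, with a median of -0.03. Only Deptor, an inhibitor of mTOR, was called, with ratios of -1.46 and -1.36, or 2.65-fold lower, and its other probe had a mean of -0.99. Of all detected genes, 1.95% were called lower. Whether Deptor stayed called with median centring was not looked at.

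The labels call both lines melanoma, and 10 of 12 melanocyte markers were detected, Ednrb and Kit being the exceptions. None was called, and their median log2 ratio was -0.14. Of the markers of other cell types, 2 of 8 for fibroblasts, 2 of 8 for leukocytes, 0 of 4 for endothelial cells and 0 of 4 for epithelial cells were detected. B16F1-GFP-D alone had Pdgfrb, Cd3e and Cd68 well above background, both lines had Col1a2, while Ptprc, Pecam1, Cdh5, Epcam and Col3a1 were not well above background in either. The spots of Pdgfrb, Cd3e and Cd68 were dim in B16F1-GFP-D, at 1.66 to 3.86 times the local background. Cd3e had log2 ratios of -0.06 and 0.05, so that its sign differed between the arrays. Pdgfrb had 0.98 and 0.69, and Cd68 had 0.51 and 0.36. The share of spots well above background ranged from 44.1% to 60.7% over the channels of both arrays and was the higher in whichever line was labelled with Cy5.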

How the data were processed

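The 10 genes and all gene lists were chosen with earlier results of these data known. The authors' scanner software, Agilent Feature Extraction 10.7.3.1 (submitters' processing notes), gave for each spot the deposited intensity of signal and local background, flags for outliers and for spots well above background, which are entered as other values, and a deposited log10 ratio of Cy5 over Cy3 of processed signals. The deposited series value table holds log10 ratios too. The text read here names no normalization for the arrays.

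In R 4.3.3 with limma 3.58.1, mean signal was corrected by normexp with an offset of 50, which draws ratios of dim spots towards 0, and normalized by loess within each array. For the log2 intensities of each line, the average intensities of the spots were also brought to a common distribution over the arrays (Aquantile scaling). That step brings the arrays closer in intensity and leaves the ratios unchanged. Control and outlier spots were left out, and no spot was saturated. Ratios were turned to log2, dormant cell-derived over maternal line. Names were updated through RefSeq accessions (27192 of 28069 probe accessions matched; GRCm38.p6). The brightest probe stood for a gene. The dye swap was counted as 1 replicate, so a gene was called by size alone, 2-fold the same way on each array. Named were the 10 genes, the eIF2alpha kinases, Cebpb, Cebpg, the paralogues and, from other lists, called genes (the 5 largest where more were called). Others are stated where named. Normalization was tested on simulated data with a constant dye factor in each channel. The simulation therefore did not cover a dye effect that changes with brightness. Python 3.11.15, pandas 2.3.3, numpy 2.4.6 and matplotlib 3.10.9 made the tables and figures.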

Additional observations from a re-analysis of the deposited data

How the results depend on the processing

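The number of effectors called lower was 8 under all alternatives but 2. It was 7 at 3-fold and 3 with median centring in place of loess, which leaves the dye effect in each array: the median of all detected genes was then -0.86 on array 1 and 1.03 on array 2, and Atf4 and Atf3 had 0.61 and 0.84 on array 2. Averaged over the arrays, all 10 genes stayed below 0 under every alternative. Their median was -2.15 with the scanner software's ratio and with the series value table, and -1.85 with median centring. With 1 array it lay between -2.10 and -1.97, and 8 were called with either array. Of 110 recomputed values of single effectors, 20 moved by more than the SD between the arrays and 0 changed sign. Many of the other values could not have moved that far. Aquantile scaling leaves ratios unchanged, and every effector passed the looser and stricter rules for dim spots. These alternatives could change neither the values nor the number called lower. Combining probes left the 8 effectors with 1 probe as they were. Leaving out 1 array shifts a mean by less than the SD between the arrays in any gene. The values that did not move are therefore not read as stability. The number of all genes called depended more on the processing. It was 628 as reported, 1071 with an offset of 0, 1343 with the scanner software's ratio, 1339 with the series value table, 64 with median centring, 1969 at 1.5-fold and 123 at 3-fold, and 796 to 816 with 1 array. Of the other ATF4 targets outside metabolism, 3 were called lower as reported, 0 with median centring, 6 at 1.5-fold and 1 at 3-fold, and 3 to 4 with 1 array. The cause of these shifts was not tested otherwise. No paired analysis was possible because there is 1 replicate per line and no test. The number of arrays limits the precision, and neither spread between cultures nor other dormant clones were measured.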

Other observations

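Over all genes, the core TGATGNAA of the C/EBP-ATF element stood in the promoter window of 2.66% of 9016 detected genes that have one. Of the genes called lower, 197 had a window, and 23 of these, or 11.7%, held it. Without the 10 effectors and the genes of both ATF4 target lists, the share was 8.43%, or 15 of 178. Of the genes called higher, 6 of 280, or 2.14%, held it. By list, it stood in 9 of 24 genes of amino acid supply, in 3 of 13 other ATF4 targets and in 0 of 15 genes of the ATF6 and IRE1 arms. The cyclic AMP element stood in 2.54% of the genes called lower and in 3.80% of detected genes. The AP-1 site stood in 7.61% of the genes called lower, in 5% of those called higher and in 5.68% of detected genes. These searches were chosen after the ratios were known, the lists hold known ATF4 targets, and no test was made.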
